A study of Mus musculus with 6 samples.

Results

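The interferon regulatory factors (IRFs) are a family of DNA-binding transcription factors, and members were taken from the gene count table by symbol. The 8 members described are *Irf1*, *Irf2*, *Irf3*, *Irf4*, *Irf5*, *Irf7*, *Irf8* and *Irf9*, among 53746 genes counted. RNA was measured in whole cerebella of 2-month-old mice, 3 per genotype, taken after perfusion with PBS. Control mice were N153S LSL/LSL, that is, they carried on both chromosomes a *Sting1* knock-in allele for the constitutively active N153S mutant of STING. The allele is under the control of a LoxP-Stop-LoxP cassette. The other group (N153S LSL/LSL Pcp2-cre, shortened to Pcp2-cre) carried the same alleles and a *Pcp2-cre* transgene, which drives Cre in Purkinje cells and so removes the stop there. Both groups therefore share the knock-in alleles and differ by Cre, and no group without the knock-in or with Cre alone was analysed here. In each group, mice 1 and 2 were male and mouse 3 was female. The libraries held 8151391, 6809768 and 10178218 counts in control mice 1 to 3 and 7565899, 8572674 and 6733178 in Pcp2-cre mice 1 to 3.

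IRFs share an amino-terminal domain that binds repeats of the letters GAAA in the promoters of interferon and interferon-stimulated genes. IRF3, IRF5 and IRF7 are activated by kinases downstream of innate immune proteins such as STING and Toll-like receptors. IRF9 acts in the answer to type I interferon, and IRF1 and IRF2 act as an activator and an antagonist on overlapping sites. IRF4 and IRF8 are lineage factors of lymphoid and myeloid cells, and in the brain IRF8 is known as a factor of microglia. Activation of IRF3 and its relatives is largely by phosphorylation, which messenger RNA does not report.

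Markers of cerebellar cells were read before the family. Purkinje cell markers were present in all mice, with 6 of 7 called lower in Pcp2-cre mice by the thresholds given below. Their median log2 fold change was −0.80. *Itpr1*, the calcium release channel that was the most abundant of them, fell by 0.98 on the log2 scale (edgeR, adjusted p = 2.9e-13), and *Car8*, *Calb1* and *Ppp1r17* were also called lower. Of 6 granule cell markers, with a median of 0.046, and 6 endothelial markers, with a median of 0.098, 0 were called by edgeR, DESeq2 or limma, and 1 in each list had an unadjusted edgeR p under 0.05. The granule cell gene, *Neurod1*, also passed the adjustment, at a log2 fold change of 0.17 under the fold threshold (adjusted p = 0.028). Of 7 astrocyte and Bergmann glia markers, with a median of 0.13, *Gfap*, the intermediate filament of reactive astrocytes, and *Aqp4*, a water channel, were called higher, with log2 fold changes of 1.94 and 0.51. The *Aqp4* value fell below the fold threshold without control 2 (0.49), control 3 (0.47) or Pcp2-cre 2 (0.46), and was 0.497 with no filter on low counts. In the same list *Slc1a3*, a glutamate transporter gene and the most abundant of the 7, and *Gdf10* were lower in every Pcp2-cre mouse, with log2 fold changes of −0.22 and −0.25 under the fold threshold (edgeR, adjusted p = 9.9e-05 and 0.0042). *S100b* and *Sox9* were higher in every Pcp2-cre mouse, with log2 fold changes of 0.13 and 0.27 (adjusted p = 0.044 and 0.095). These 4 genes and *Neurod1* were named after their values were seen.

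Choroid plexus, a tissue beside the cerebellum, was unevenly represented. In CPM, counts scaled to a common normalised library size, the 6 choroid plexus markers summed to 779 and 1206 in controls 1 and 2, 31.1 in control 3 and 22.3, 29.5 and 83.7 in Pcp2-cre mice 1 to 3. *Ttr*, *Clic6* and *Kl* were called lower, but control 3 lay with the Pcp2-cre mice in the sum. Without Pcp2-cre 1 or Pcp2-cre 2 the edgeR adjusted p of *Ttr* was 0.052 and 0.089, and that of *Kl* without Pcp2-cre 2 was 0.063. The log2 fold changes in these fits were −4.09 and −4.12 for *Ttr* and −3.73 for *Kl*, against −4.61 and −3.67 with all mice. Neither gene was called by DESeq2 or limma. Over all alternatives the values ran from −6.62 to −3.82 for *Ttr* and from −4.32 to −1.97 for *Kl*. *Clic6* was lower in every Pcp2-cre mouse and was called in every alternative, with log2 fold changes from −4.34 to −2.52. The sum is mostly *Ttr*, and that of the other 5 genes was lower in every Pcp2-cre mouse, with 134, 179 and 28.0 CPM in controls and 18.0, 22.7 and 22.3 CPM in Pcp2-cre mice. Control 3 is therefore the control closest to the Pcp2-cre mice in choroid plexus RNA, and its values are given for each IRF gene below. It was also the only female control and the largest library, and these traits cannot be told apart in 1 mouse.

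Of the 8 IRF genes, *Irf8* was the only one called, with the same result under each normalisation tried. Its counts were 4.01-fold higher in Pcp2-cre cerebella, and each Pcp2-cre mouse exceeded all controls. *Irf3*, *Irf9* and *Irf2*, the most abundant members in the deposited FPKM, had count-based fold changes between 0.99 and 1.15, and none was called. Calls required a p of at most 0.05 in the edgeR quasi-likelihood test, after Benjamini-Hochberg adjustment over the 16961 genes tested, and a log2 fold change of 0.5 or more in either direction. By that rule 1 of the 7 members that passed the filter on low counts was called up and 0 down, against 1.37% of all tested genes up and 1.79% down. DESeq2 and limma gave the same counts of 1 and 0, and at an unadjusted edgeR p under 0.05 they were 2 and 0, against 8.36% of all tested genes higher and 9.67% lower. *Irf4* did not pass the filter. The median log2 fold change was 0.17 over the 7 members and 0.0045 over all genes tested. In 3 of them, *Irf7*, *Irf8* and *Irf9*, every Pcp2-cre mouse was above every control, a pattern that 10.8% of all tested genes showed.

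**Figure D1:**
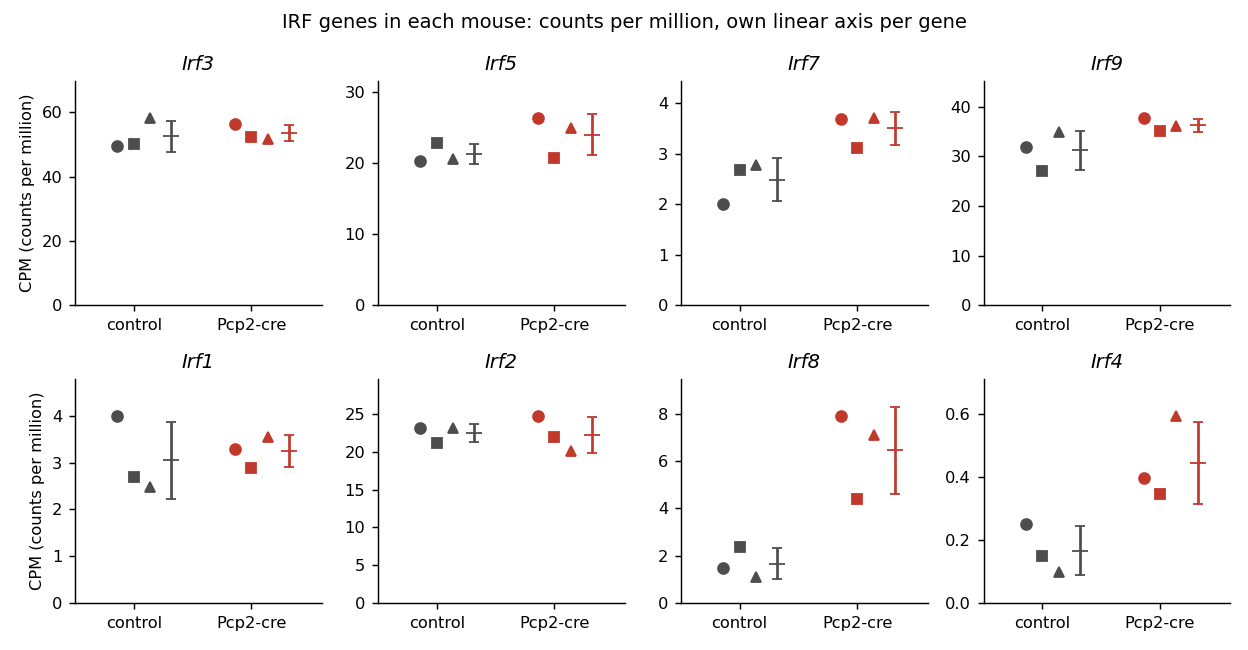
Normalised counts (CPM, linear axis from 0, a separate scale for each gene) of the 8 IRF genes in 3 control and 3 Pcp2-cre cerebella. Circles, squares and triangles are mice 1, 2 and 3, and the bars beside them the mean ± SD. *Irf8* runs from 1.09 to 2.38 CPM in controls and from 4.39 to 7.90 CPM in Pcp2-cre mice, while *Irf3*, *Irf5*, *Irf1* and *Irf2* overlap between groups. *Irf4* rests on 1 to 4 counts per mouse.

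Levels of different genes were compared in FPKM, the deposited unit, in which fragments are scaled to the length of a gene's exons and to the sequenced total. In controls the order of the mean levels was *Irf3* at 35.9 ± 4.06 FPKM, *Irf9* at 10.6 ± 0.647, *Irf2* at 7.29 ± 0.298, *Irf1* at 1.26 ± 0.125, *Irf7* at 0.928 ± 0.111, *Irf8* at 0.447 ± 0.015, *Irf5* at 0.390 ± 0.248 and *Irf4* at 0.076 ± 0.022 (SD, n = 3 mice). Only *Irf8* and *Irf5* among the neighbours in that order had overlapping ranges. In Pcp2-cre mice *Irf8* stood at rank 4 instead of 6, at 1.85 ± 0.327 FPKM (SD, n = 3 mice), and *Irf8*, *Irf7*, *Irf5* and *Irf1*, in that order, each overlapped the next. In this unit *Irf3*, *Irf9* and *Irf2* led in both groups, without overlap between neighbours. Counts divided by exon length and library size gave another order of the 7 tested members. There *Irf5* stood at rank 3 and *Irf2* at rank 4 in both groups, and *Irf8* was last in both. The rise of *Irf8* in mean rank was therefore not seen in the count table. Its range there overlapped that of *Irf1*, the next above, in Pcp2-cre mice but not in controls. The last place of *Irf8* in Pcp2-cre mice was thus not resolved. *Irf3* and *Irf9* stood at the top in both tables.

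The share of the family's summed deposited FPKM that came from *Irf8* was 0.847%, 0.822% and 0.698% in control mice and 3.17%, 2.41% and 3.24% in Pcp2-cre mice. *Irf3* made up 61.5%, 62.7% and 64.9% of the sum in controls and 57.4%, 58.9% and 58.8% in Pcp2-cre mice. The groups did not overlap in either share, and *Irf3* was the largest part of the sum in every cerebellum. The FPKM of *Irf3* itself overlapped between groups, so its lower share is no fall of *Irf3*. The sum includes the FPKM of *Irf5*, whose level is uncertain in these data.

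**Figure D2:**
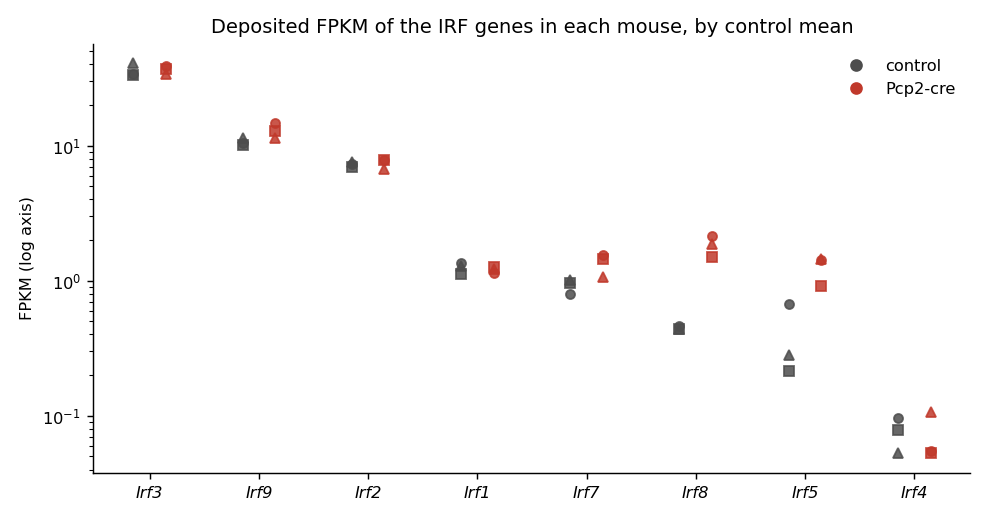
Deposited FPKM (log axis) of each IRF gene in each mouse, ordered by the control mean. Grey symbols are control mice and red symbols Pcp2-cre mice, with circles, squares and triangles for mice 1, 2 and 3. *Irf3* lies between 33.5 and 40.6 FPKM in all 6 mice, and *Irf8* moves from 0.437 to 0.464 FPKM in controls to 1.51 to 2.16 FPKM in Pcp2-cre mice.

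*Irf8* (ENSMUSG00000041515) lies on the plus strand of chr8:121463096-121485659 in GRCm39, and none of its exonic bases is shared with another annotated gene. IRF8 is required for the normal development of monocytes, dendritic cells and microglia. The promoter of *Irf8* is shown because this gene was the member that changed, and those of *Irf1* and *Irf2* because they hold the same kinds of motif and their genes were not called. Each window runs from 250 bases before to 50 after the annotated start and was taken from the RefSeq promoter table of GRCm38.p6, in which all 8 members were matched with 11 windows. Places in GRCm39 are those of the same sequence in that genome: chr8:121462847-121463146 for *Irf8*, chr11:53660591-53660890 for *Irf1* and chr8:47192530-47192829 for *Irf2*, all on the plus strand. Capitals mark matches on either strand to GAAANNGAAA, the repeat bound by IRFs, or to TTCNNNGAA, the GAS palindrome bound by dimers of STAT proteins.
Irf8: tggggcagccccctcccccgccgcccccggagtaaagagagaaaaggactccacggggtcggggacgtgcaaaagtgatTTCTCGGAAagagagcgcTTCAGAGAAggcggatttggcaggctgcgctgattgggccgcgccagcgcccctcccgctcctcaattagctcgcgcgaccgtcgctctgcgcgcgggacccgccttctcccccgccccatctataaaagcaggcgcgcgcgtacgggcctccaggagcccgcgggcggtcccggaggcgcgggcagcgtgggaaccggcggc
Irf1: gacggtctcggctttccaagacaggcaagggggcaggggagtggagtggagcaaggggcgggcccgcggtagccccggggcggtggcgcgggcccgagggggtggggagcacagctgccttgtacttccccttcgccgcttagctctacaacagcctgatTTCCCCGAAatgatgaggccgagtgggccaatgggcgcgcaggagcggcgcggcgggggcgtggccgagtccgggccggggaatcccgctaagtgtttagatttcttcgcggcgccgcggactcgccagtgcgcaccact
Irf2: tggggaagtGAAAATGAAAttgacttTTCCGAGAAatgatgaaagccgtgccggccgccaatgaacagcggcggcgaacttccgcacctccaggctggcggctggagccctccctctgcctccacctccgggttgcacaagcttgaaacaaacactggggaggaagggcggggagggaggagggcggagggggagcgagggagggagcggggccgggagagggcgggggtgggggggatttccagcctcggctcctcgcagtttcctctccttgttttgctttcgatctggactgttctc

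The *Irf8* window holds 2 GAS matches, TTCTCGGAA and TTCAGAGAA, the former 171 bases before the start and the latter 18 bases further on. *Irf1* holds TTCCCCGAA, 90 bases before its start. *Irf2* holds the IRF repeat GAAAATGAAA at 241 bases and TTCCGAGAA at 224 bases before its start. No match overlaps another. Of all 32851 promoter windows in the table, 3.44% hold the IRF repeat and 8.3% a GAS match, and of the 11 IRF family windows 1 and 3 do. Matches to the GAS letters thus stood both at a called member and at members not called, and a match describes letters only, not binding.

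Normalised to library size, *Irf8* had 1.50, 2.38 and 1.09 CPM in control mice 1 to 3 and 7.90, 4.39 and 7.10 CPM in Pcp2-cre mice 1 to 3. The lowest Pcp2-cre mouse was above the highest control, and control 3 was the lowest of all. These values rest on 12, 16 and 11 counts in controls and 60, 38 and 48 counts in Pcp2-cre mice, all above the floor of 3 counts. The log2 fold change was 2.00 (SE 0.29, 95% confidence interval 1.41 to 2.60; edgeR, adjusted p = 4.7e-05), and 3 of 3 Pcp2-cre mice were higher than every control. The deposited FPKM gave the same separation, with 0.464, 0.439 and 0.437 FPKM in controls and 2.16, 1.51 and 1.87 FPKM in Pcp2-cre mice. On the log2(FPKM + 0.1) scale, which understates changes of low genes, the difference was 1.82 (limma, adjusted p = 0.0062). Leaving out any single mouse left *Irf8* called, with log2 fold changes from 1.73 to 2.31.

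Microglial markers moved with *Irf8*. Of 22 markers, 19 were called up and 0 down, and the median log2 fold change was 1.83, against 0.0045 for all genes tested. The 22 genes summed to 181, 177 and 183 CPM in control mice and 534, 519 and 594 CPM in Pcp2-cre mice, and none was at 0 in all mice. *C1qa* and *C1qb*, chains of the complement component C1q, rose by 2.10 and 1.99 on the log2 scale. *Fcrls*, a microglial Fc receptor-like gene, rose by 2.89, and *Ctss*, a lysosomal cysteine protease, by 1.84. The markers not called were *P2ry12*, *Tmem119* and *Siglech*, surface proteins of microglia, with log2 fold changes of 0.28, 0.061 and 0.15. In log2(FPKM + 0.1) their differences were 0.54, 0.22 and 0.10 (limma, adjusted p = 0.078, 0.34 and 0.89). *P2ry12* and *Tmem119* were higher in every Pcp2-cre mouse in FPKM but overlapped in counts. *Siglech* was higher in every Pcp2-cre mouse in counts but overlapped in FPKM, so the tables differ on these genes. *Cx3cr1*, *P2ry13* and *Gpr34*, further surface receptors of microglia, were called, with count-based log2 fold changes of 1.48, 1.34 and 1.85. These 6 genes were named after their values were seen.

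**Figure D3:**
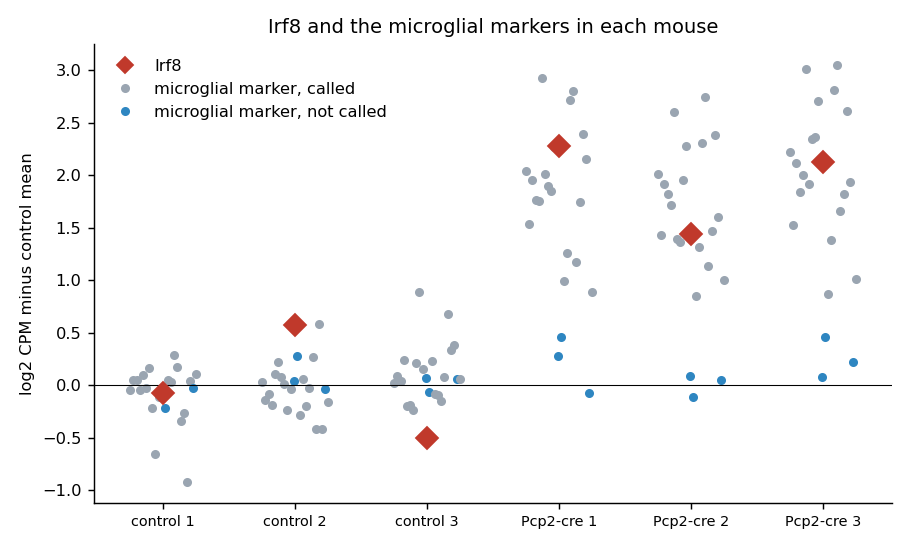
Log2 CPM minus the control mean (vertical axis) in each mouse for *Irf8* (red diamonds) and the 22 microglial markers, grey where called and blue for the 3 not called. In each Pcp2-cre mouse *Irf8* lies inside the spread of the called markers, between 1.44 and 2.28, and the blue markers stay between −0.11 and 0.46.

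The *Irf8* change lay inside the range of the microglial markers, whose log2 fold changes ran from 0.061 to 2.89. Among them 6 of 22 had a larger log2 fold change than *Irf8* and 16 a smaller one. Divided by the summed CPM of the 22 markers, which do not include it, *Irf8* stood at 0.828%, 1.35% and 0.595% in controls and 1.48%, 0.846% and 1.19% in Pcp2-cre mice. The groups overlapped in that ratio, so a change of *Irf8* relative to the markers was not detectable at this depth. In whole tissue, more cells of a type and more RNA per cell cannot be told apart, and the part of microglial number in the *Irf8* result was not tested.

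Of 21 markers of other leukocytes, 4 passed the filter, and 0 were called up and 1 down by edgeR, DESeq2 and limma alike, with 0 and 1 at an unadjusted edgeR p under 0.05. *Nkg7* and *Xcr1*, of cytotoxic lymphocytes and dendritic cells, were at 0 counts in all mice, and 9 of the 21 genes did not exceed 3 counts in any mouse. The most abundant, *Flt3*, a receptor tyrosine kinase of dendritic and blood progenitor cells, fell by 0.70 on the log2 scale (edgeR, adjusted p = 2.2e-06). Purkinje cell markers fell in the same mice, at a median of −0.80, and the cells that *Flt3* RNA came from were not tested. The 21 genes summed to 70.2, 63.0 and 62.1 CPM in controls and 48.6, 52.4 and 43.8 CPM in Pcp2-cre mice, and *Flt3* made up most of that. The sum of the other 20 genes moved the opposite way without overlap. It was 13.3, 9.98 and 13.6 CPM in controls and 16.1, 17.7 and 14.5 CPM in Pcp2-cre mice. Each of the 20 overlapped between groups. Most of them did not pass the filter and so could not be called, and none of those tested was called.

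The 5 tested genes whose centred log2 CPM lay nearest to *Irf8* over the 6 mice, by Euclidean distance, were *Naip5* (0.67), *Myo1f* (0.71), *Ptprc* (0.71), *P2ry6* (0.71) and *AU020206* (0.77). The median distance to *Irf8* over the other 16960 tested genes was 3.53. The distance includes the shift between groups, so a small distance and a log2 fold change near that of *Irf8* follow from the choice itself. *Ptprc*, which encodes the leukocyte phosphatase CD45, is also among the microglial markers and had a log2 fold change of 1.81. Those of the other 4 were 1.86 for *Naip5*, 2.11 for *Myo1f*, 1.67 for *P2ry6* and 1.72 for *AU020206*.

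IRF8 and IRF4 bind DNA poorly alone and act on composite sites with partner proteins. Of 13 nuclear partners and corepressors of IRFs, 8 were tested, 2 were called up and 0 down, and the median log2 fold change was 0.028. Microglial markers rose in the same mice, at a median of 1.83, and their part in the 2 calls was not tested. *Spi1*, which encodes the myeloid factor PU.1, had 1.25, 1.34 and 0.793 CPM in controls and 2.50, 3.35 and 2.96 CPM in Pcp2-cre mice. Every Pcp2-cre mouse was above every control, and the log2 fold change was 1.42 (SE 0.30; edgeR, adjusted p = 0.0031). *Ikzf1*, the zinc finger factor Ikaros of blood cells, had 0.998, 1.19 and 1.68 CPM in controls and 4.35, 3.46 and 3.55 CPM in Pcp2-cre mice. Its groups did not overlap either, and the log2 fold change was 1.50 (SE 0.27; edgeR, adjusted p = 7.1e-04). In the FPKM table *Ikzf1* was higher in every Pcp2-cre mouse, with differences of 1.01 and 0.37 at pseudocounts of 0.1 and 1. It was not called there (limma, adjusted p = 0.10 and 0.085). Of the partners of the AP-1 type, *Batf* and *Batf3* did not pass the filter, and *Batf2*, named after its value was seen, overlapped between groups at a log2 fold change of 0.075 (edgeR, adjusted p = 0.89).

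*Irf4* (ENSMUSG00000021356), a factor of lymphocytes and plasma cells on chr13:30933209-30950959, had 2, 1 and 1 counts in controls and 3, 3 and 4 counts in Pcp2-cre mice. Only Pcp2-cre 3 exceeded the floor of 3 counts, which corresponds to 0.297 to 0.447 CPM in these libraries. In CPM every Pcp2-cre mouse was above every control (0.0991 to 0.249 against 0.346 to 0.592), and with no filter on low counts the log2 fold change was 1.34 (edgeR, adjusted p = 0.61). The FPKM table lists it at 0.097, 0.079 and 0.053 in controls and 0.055, 0.053 and 0.107 in Pcp2-cre mice, with overlap, so the tables disagree. A difference in *Irf4* was not detectable at this depth.

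Among the members that act downstream of STING and Toll-like receptors, none was called. *Irf3* (ENSMUSG00000003184, chr7:44647033-44652272), the factor that TBK1 phosphorylates after STING activation, had 49.4, 50.03 and 58.1 CPM in controls and 56.4, 52.4 and 51.6 CPM in Pcp2-cre mice. The highest value was that of control 3, and the groups overlapped. Its log2 fold change was 0.018 with a 95% confidence interval of −0.13 to 0.16, so that changes of 0.5 in either direction lay outside the interval (edgeR, adjusted p = 0.94). The sign of that small value turned without control 1, control 2 or Pcp2-cre 1, to −0.030, −0.015 and −0.023.

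*Irf7* (ENSMUSG00000025498, minus strand of chr7:140842619-140846398), itself induced by interferon and the amplifier of type I interferon production, had 2.00, 2.68 and 2.77 CPM in controls and 3.69, 3.12 and 3.70 CPM in Pcp2-cre mice. Every Pcp2-cre mouse was above every control, with control 3 the highest of the controls. The log2 fold change of 0.48 had a 95% confidence interval of −0.0095 to 0.97 and did not pass the correction (edgeR, unadjusted p = 0.054, adjusted p = 0.29). It rests on 16 to 28 counts per mouse, and the interval holds both no change and changes above the fold threshold. Leaving out a mouse gave log2 fold changes of 0.35 to 0.59.

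*Irf5* (ENSMUSG00000029771, chr6:29526276-29541870), a factor of Toll-like receptor signalling in myeloid cells, differed between the deposited tables. In counts it had 20.3, 22.9 and 20.6 CPM in controls and 26.3, 20.8 and 25.0 CPM in Pcp2-cre mice. The groups overlapped, and the log2 fold change was 0.17 (95% confidence interval −0.033 to 0.38; edgeR, adjusted p = 0.39). It ran from 0.098 without Pcp2-cre 1 to 0.28 without Pcp2-cre 2. In FPKM it had 0.674, 0.215 and 0.282 in controls and 1.41, 0.907 and 1.45 in Pcp2-cre mice, without overlap. There the difference in log2(FPKM + 0.1) was 1.56, and it did not pass the correction either (limma, unadjusted p = 0.0075, adjusted p = 0.13; range over all alternatives 0.093 to 0.87). At a pseudocount of 1 the difference was 0.70 (limma, adjusted p = 0.093). The gap given below rests on the pseudocount of 0.1.

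The gap between the tables for *Irf5*, 1.38 on the log2 scale, was larger than that of 99.8% of the 16672 tested genes with an FPKM value and an annotated length, among which the median gap was 0.058 in size and 69 genes, or 0.414%, exceeded 1. Counts divided by exon length and library size gave *Irf5* levels of 2.93 and 3.37, on the scale of FPKM, in control and Pcp2-cre mice, 7.52 and 2.69 times the deposited FPKM, so the tables were further apart in controls. Over all 6 mice the ratio was 3.83. For the median gene that ratio was 0.691, and for the other tested members it lay between 0.271 (*Irf2*) and 0.691 (*Irf7*). Of the 7167 exonic bases annotated for *Irf5*, 416 are shared with *Tnpo3*, a nuclear import receptor gene on the opposite strand, and whether counting used strand is not given in the sources used here. *Tnpo3* had 72.7 to 83.6 CPM over the 6 mice with overlap between groups. The part of shared reads in the gap was not tested, and the level and change of *Irf5* are uncertain in these data.

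**Figure D4:**
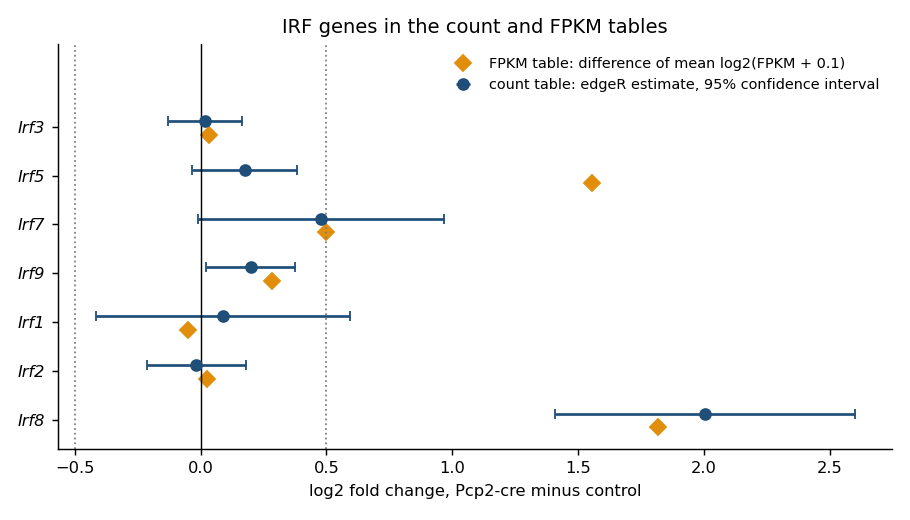
Log2 fold change, Pcp2-cre minus control (horizontal axis), of the 7 tested IRF genes in the count table (blue points, edgeR estimate with 95% confidence interval) and in the FPKM table (orange diamonds, difference of mean log2(FPKM + 0.1)). Dotted lines mark the fold threshold of 0.5. *Irf8* lies at 2.00 and 1.82, *Irf5* at 0.17 and 1.56, and the other 5 genes lie within 0.5 of 0 in both tables.

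Upstream of these factors, 22 of 28 genes for sensors, adaptors and kinases were tested, 2 were called up and 0 down, and the median log2 fold change was 0.075. Calls down were 0 for this list, the receptor, partner, antiviral and GTPase lists and the microglial markers by edgeR, DESeq2 and limma. At an unadjusted edgeR p under 0.05, 1 upstream gene and 0 genes of the other lists were lower. Higher at that cut were 6 of 22 upstream genes, 3 of 8 partners, 8 of 19 antiviral genes and 10 of 23 GTPase, immunoproteasome and antigen-processing genes, against 8.36% of all tested genes. *Sting1*, the gene that carries the knock-in alleles, had 23.2, 27.2 and 26.2 CPM in controls and 44.4, 34.2 and 35.5 CPM in Pcp2-cre mice. Counts per gene do not separate mutant from other *Sting1* transcripts, and controls held *Sting1* RNA too. Pcp2-cre 1 was the highest and the groups did not overlap, with a log2 fold change of 0.57 (SE 0.097; edgeR, adjusted p = 3.6e-04). Without Pcp2-cre 1 it was 0.45, under the fold threshold, at an adjusted p of 0.0074, which left 1 upstream gene called. In FPKM *Sting1* was again higher in every Pcp2-cre mouse, with differences of 0.49 and 0.46 at pseudocounts of 0.1 and 1. It was not called there (limma, adjusted p = 0.38 and 0.37). *Tlr7*, the endosomal sensor of single-stranded RNA that signals to IRF5 and IRF7, had 1.12, 0.893 and 1.59 CPM in controls and 3.42, 4.39 and 4.14 CPM in Pcp2-cre mice. Its log2 fold change was 1.67 (SE 0.27; edgeR, adjusted p = 2.3e-04) without overlap. In log2(FPKM + 0.1) the difference was 1.30 and was not called (limma, adjusted p = 0.061). In log2(FPKM + 1) it was 0.50 and was called (limma, adjusted p = 0.040). Microglial markers had a median log2 fold change of 1.83 in the same mice, and their part in the *Sting1* and *Tlr7* calls was not tested.

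*Tbk1*, the kinase between STING and IRF3, had 60.1, 62.2 and 61.2 CPM in controls and 60.8, 60.8 and 65.2 CPM in Pcp2-cre mice. The groups overlapped, and the 95% confidence interval of the log2 fold change ran from −0.093 to 0.14 (edgeR, adjusted p = 0.89). Transcripts of the STING-TBK1-IRF3 line thus had a called difference at *Sting1* and none at *Tbk1* or *Irf3*.

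*Irf9* (ENSMUSG00000002325, chr14:55841028-55847812), a DNA-binding factor of the type I interferon response, had 31.8, 27.1 and 34.9 CPM in controls and 37.7, 35.1 and 36.1 CPM in Pcp2-cre mice. Every Pcp2-cre mouse was above every control, but control 3 lay only just under Pcp2-cre 2. The log2 fold change was 0.20 (95% confidence interval 0.020 to 0.38; edgeR, unadjusted p = 0.031, adjusted p = 0.21). Without control 3 the adjusted p was 0.040 at a log2 fold change of 0.29, still under the fold threshold, and without control 2 it was 0.57 at a log2 fold change of 0.11. Over all alternatives the adjusted p ran from 0.040 to 0.58. *Irf9* shares 282 of its 5801 exonic bases with *Rnf31* on the same strand, whose groups overlapped at a log2 fold change of −0.035.

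*Stat2*, which encodes a binding partner of IRF9, had 122, 124 and 130 CPM in controls and 135, 133 and 133 CPM in Pcp2-cre mice, with a log2 fold change of 0.090 (edgeR, adjusted p = 0.23). Of 15 genes for interferon receptors and JAK-STAT signalling, 13 were tested and 0 were called by edgeR, 0 by DESeq2 and 0 by limma on FPKM. The count was 1 with the replicate number as a block and without control 1, control 3 or Pcp2-cre 2. In the main test 1 had an edgeR adjusted p of at most 0.05 and the median log2 fold change was 0.12. Unadjusted, 5 of the 13 were higher and 0 lower at an edgeR p under 0.05, against the 8.36% and 9.67% of all tested genes given above.

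*Irf1* (ENSMUSG00000018899, chr11:53660812-53669200), an activator induced by interferon gamma, had 3.99, 2.68 and 2.48 CPM in controls and 3.29, 2.89 and 3.55 CPM in Pcp2-cre mice. The groups overlapped, and control 1 was the highest of all mice. At 18 to 32 counts per mouse the log2 fold change of 0.088 had a 95% confidence interval of −0.42 to 0.59 (edgeR, adjusted p = 0.91), and its sign turned in the FPKM table and without control 3 (−0.074). Of its 4678 exonic bases, 46% are shared with the opposite-strand genes *Gm12216*, *Gm17334* and *Gm74496*, so reads of *Irf1* and of these genes may not be told apart. *Gm12216* and *Gm17334* had at most 1.27 CPM in any mouse.

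*Irf2* (ENSMUSG00000031627, chr8:47192222-47300501), which represses many of the sites that IRF1 activates, had 23.2, 21.1 and 23.2 CPM in controls and 24.8, 21.9 and 20.1 CPM in Pcp2-cre mice. The groups overlapped, with a log2 fold change of −0.018 (95% confidence interval −0.21 to 0.18; edgeR, adjusted p = 0.96), and the sign turned in the FPKM table and without control 3 or Pcp2-cre 3 (0.0038 and 0.041). Of the IRF2 corepressors, *Irf2bp2* had a log2 fold change of 0.21 at an edgeR adjusted p of 0.0079, under the fold threshold, and was named after its value was seen. *Irf2bp1* and *Irf2bpl* had log2 fold changes of −0.019 and −0.059.

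Target genes of the family were read from lists of antiviral genes and of GTPase, immunoproteasome and antigen-processing genes. Of 26 antiviral interferon-stimulated genes, 19 were tested, 1 was called up and 0 down. Their median log2 fold change was 0.45, against 0.0045 for all genes tested. Above 0 were 16 of the 19, against 51.3% of all genes tested. In 7 of the 19 every Pcp2-cre mouse was above every control, a pattern shown by 10.8% of all tested genes. *Bst2*, which tethers budding viruses to the cell surface, had 2.49, 2.53 and 2.87 CPM in controls and 3.69, 4.50 and 5.62 CPM in Pcp2-cre mice. The groups did not overlap, and the log2 fold change was 0.78 (SE 0.23; edgeR, adjusted p = 0.036). That call was lost without control 1 (adjusted p = 0.13), control 2 (0.099), Pcp2-cre 2 (0.11) or Pcp2-cre 3 (0.19), and with DESeq2 (0.23) and limma on FPKM (0.16 and 0.15), while the log2 fold change in these settings stayed between 0.62 and 0.80. Without control 3, 3 antiviral genes were called, *Bst2*, *Parp14* and *Trim30a*, and without Pcp2-cre 1, 2 were, *Bst2* and *Oasl2*.

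*Isg15*, a ubiquitin-like modifier among the most used reporters of type I interferon, had 0.873, 1.04 and 1.68 CPM in controls and 1.98, 2.08 and 1.18 CPM in Pcp2-cre mice. The groups overlapped, because control 3 was higher than Pcp2-cre 3. Its log2 fold change of 0.51 had a 95% confidence interval of −0.21 to 1.23 (edgeR, adjusted p = 0.50), which rests on 7 to 18 counts per mouse. The value moved from 0.32 without control 1 to 0.89 without control 3, and was 0.15 and 0.12 in FPKM at pseudocounts of 0.1 and 1.

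Of 24 GTPase, immunoproteasome and antigen-processing genes, 23 were tested, and 2 were called up and 0 down. Above 0 were 20 of 23, against 51.3% of all genes tested, and the median log2 fold change was 0.36. Microglial markers rose in the same mice, at a median of 1.83, and their part in the target lists was not tested. *B2m*, the light chain of MHC class I, had 49.9, 52.4 and 48.3 CPM in controls and 72.3, 80.8 and 85.2 CPM in Pcp2-cre mice. Every Pcp2-cre mouse was above every control, and the log2 fold change was 0.66 (SE 0.063; edgeR, adjusted p = 2.0e-07). *Psmb8*, a catalytic subunit of the immunoproteasome, had 0.873, 0.447 and 1.09 CPM in controls and 2.90, 3.23 and 3.55 CPM in Pcp2-cre mice. It did not overlap either, and its log2 fold change of 1.91 (SE 0.31; edgeR, adjusted p = 2.5e-04) rests on 3 to 28 counts per mouse. *Psmb9* and *Psmb10*, further catalytic subunits of that proteasome, overlapped between groups in the counts at log2 fold changes of 0.12 and −0.025 and were named after their values were seen. In FPKM *Psmb9* was higher in every Pcp2-cre mouse, with a difference of 0.67 in log2(FPKM + 0.1) that did not pass the correction (limma, unadjusted p = 0.019, adjusted p = 0.21), so the tables disagree on it. Without Pcp2-cre 1 the number called was 4, with *Irgm1* and *Irgm2*, GTPases of the interferon gamma response, beside *B2m* and *Psmb8*.

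**Figure D5:**
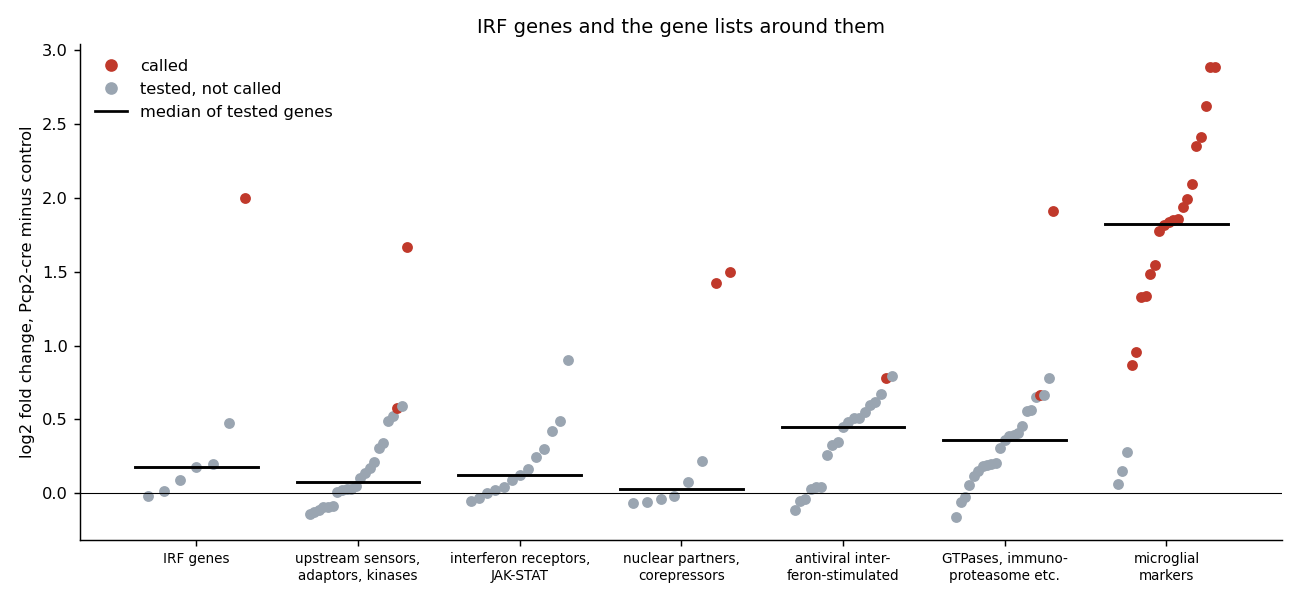
Log2 fold change, Pcp2-cre minus control (vertical axis), of each tested gene among the IRF genes and 6 gene lists, sorted within a list. Red points were called, grey points were tested and not called, and black bars are medians, which run from 0.028 for nuclear partners and corepressors to 1.83 for microglial markers. Called genes outside the microglial list number 1 among the IRF genes and 7 in the other 5 lists.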

How the data were processed

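Cerebellar poly(A) RNA was sequenced by the authors as paired reads, trimmed and aligned with STAR to GRCm39. The authors deposited raw counts per gene, from featureCounts on a Gencode table, and FPKM, for which StringTie or featureCounts was used. Versions, strand setting and treatment of multi-mapping reads are not given in the sources used here. From the counts, genes with low values were removed with filterByExpr, TMM factors were computed, and genotypes were compared with the quasi-likelihood test of edgeR 4.0.16 (R 4.3.3), with Benjamini-Hochberg adjustment over all genes tested. The design had genotype only. The FPKM were compared with limma 3.58.1 on log2(FPKM + 0.1), and DESeq2 1.42.0 was an alternative, as were other filters, size factors, covariates and leaving out each mouse. Scripts were tested on simulated data. The floor of 3 counts and the intervals cover counting error or the spread between mice only. Gene positions, exon lengths and overlaps were read from Gencode M39 on GRCm39, whose release may differ from that of the authors.

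Members were found by symbol, and some genes are not reported here. *Rigi* was matched by its older symbol. Members and lists were chosen with earlier results of these data known. Named genes were all members, up to 5 called genes with the smallest p from each list, *Sting1*, *Stat2*, *Tbk1*, *Spi1*, *Isg15* and *Bst2*, and the 5 genes nearest in pattern to each of up to 3 members with an adjusted p of at most 0.05, of which *Irf8* was the only one. Among others, these rules do not cover *Parp14*, *Trim30a*, *Oasl2*, *Irgm1*, *Irgm2*, *Irf2bp1*, *Irf2bpl*, *Nkg7* and *Xcr1*. Those genes are to be read as named after their values were seen. Mice of a group differed by more than counting noise (chi-square per gene 1.38 to 3.62), so each counted as a replicate.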

Additional observations from a re-analysis of the deposited data

How the results depend on the processing

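*Irf8* was the only IRF gene called in every one of the 15 alternatives, and its log2 fold change ran from 0.97 (limma on log2(FPKM + 1)) to 2.31. No other member was called in any of them. The sign of the small differences turned for *Irf1* in FPKM (−0.050 at a pseudocount of 0.1, −0.031 at 1; leaving out mice, −0.074 to 0.33), for *Irf2* in FPKM (0.026 and 0.024; leaving out mice, −0.10 to 0.041) and for *Irf3* when mice were left out (−0.030 to 0.10).

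Over all genes 233 were called up and 304 down. DESeq2 called 150 up, limma on log2(FPKM + 0.1) 144 up and 167 down, limma on log2(FPKM + 1) 126 up and 155 down, and without the fold threshold 507 were up and 805 down. Upstream genes called fell from 2 to 1 with at least 10 counts in every mouse and with log2(FPKM + 1), and to 0 with log2(FPKM + 0.1); leaving out mice gave 1 to 3. Receptor and JAK-STAT genes called were 1 without the fold threshold and 0 to 1 leaving out mice. Nuclear partners called were 0 with at least 10 counts in every mouse, which removed *Spi1* and *Ikzf1* from the test, and 1 in FPKM at either pseudocount. Antiviral genes called were 0 with DESeq2 and in FPKM at either pseudocount, 2 without a filter and with sex as a covariate, and 0 to 3 leaving out mice. GTPase, immunoproteasome and antigen-processing genes called were 1 with at least 10 counts in every mouse, which removed *Psmb8*, and 2 to 4 leaving out mice. Other than through the genes tested, the cause was not tested. Microglial markers called ran from 15 to 19.

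With the replicate number as a block, 1 receptor and JAK-STAT gene was called in place of 0, and no other count moved by over 1.5 times. Same-numbered mice had correlations of 0.065, 0.077 and 0.22 in their deviations from the group means. Control 1 was closer to Pcp2-cre 2 (0.095), so the numbers were not taken to pair mice. The other pairs with a mouse 3 lay between −0.15 and −0.12. Mouse 3 was the only female of each group, so sex and pairing cannot be told apart in these values. Depth limits *Irf1*, *Irf4*, *Irf7* and *Isg15*, at 32 counts or fewer per mouse. It also limits the called genes *Spi1*, *Ikzf1* and *Tlr7*, at 8 to 29, 8 to 33 and 6 to 38 counts per mouse.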
